A study of Mus musculus with 6 samples.

Results

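The genes described here are 7 zinc transporters and 3 metallothioneins, followed in hippocampal dentate granule cells of control mice and of mice that overexpress HuD. HuD is the product of Elavl4 and binds mRNA in neurons. The genes are the exporters Slc30a1, Slc30a3, Slc30a4, Slc30a5 and Slc30a9, the importers Slc39a6 and Slc39a10, and Mt1, Mt2 and Mt3. Members were found by symbol: every probe set whose platform annotation holds 1 symbol, that symbol being 1 of the 10 genes. This gave 16 probe sets, a probe set being the group of short DNA probes that reads 1 transcript on the array. All 10 genes are among the 11138 genes with a symbol that were bright enough to be tested.

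Total RNA was the starting material for 6 expression arrays, 3 per group. Sample descriptions name the cells only as DGCs, taken here as dentate granule cells from what is known of the study, and name 4 mice, 2 per group. In both groups 1 array came from mouse 1 and 2 arrays from mouse 2. Both arrays described as control mouse 2 are titled with different control numbers, and the description was followed. Array 1 and array 2 of a mouse are names only and mark no shared run. A tag of unstated meaning, re-LCM, stands in 3 titles: both mouse 1 arrays, and array 1 of the transgenic mouse 2. Control mice are described only as control; strain, age, sex and the promoter of the transgene are not given in the labels. As background, the HuD line is known to carry its transgene under the CaMKII-alpha promoter, which is active in forebrain excitatory neurons.

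Zinc is the metal that gives mossy fibres, the axons of granule cells, their classical histochemical stain. Most Slc30 (ZnT) proteins move zinc out of the cytosol, to the outside or into vesicles and organelles, and Slc39 (ZIP) proteins move it into the cytosol. Slc30a3, ZnT3, loads zinc into synaptic vesicles, from which it is released with glutamate. Metallothioneins are small, cysteine-rich proteins that bind zinc and copper. Mt1 and Mt2 are induced by metals and glucocorticoids and are abundant in astrocytes, and Mt3 is the brain-enriched member of the family. The transcription factor Mtf1 senses zinc and acts through metal response elements in front of Mt1, Mt2 and Slc30a1.

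The metallothionein genes lie in a row on mouse chromosome 8, on the forward strand (RefSeq, GRCm38.p6): Mt3 at chr8:94152607-94154148, Mt2 at chr8:94172618-94173567 and Mt1 at chr8:94178883-94180327, with 5315 bases between Mt2 and Mt1 and 18469 bases between Mt3 and Mt2. The 250 bases upstream of Mt2 and Mt3 are shown, 5′ to 3′, because Mt2 had the largest group difference of the members and the most matches to the core of the metal response element, marked in capitals, and Mt3 had none in these bases. They lie at chr8:94172368-94172617 for Mt2 and chr8:94152357-94152606 for Mt3. The table's start for Mt1 lies inside the annotated gene, so that 206 of the 250 bases before it belong to the gene, and they are not printed.
Mt2: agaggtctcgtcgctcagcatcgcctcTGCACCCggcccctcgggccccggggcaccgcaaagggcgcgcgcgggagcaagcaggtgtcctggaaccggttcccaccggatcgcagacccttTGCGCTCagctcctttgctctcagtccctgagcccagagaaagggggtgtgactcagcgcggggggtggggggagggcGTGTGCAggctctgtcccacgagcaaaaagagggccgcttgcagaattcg
Mt3: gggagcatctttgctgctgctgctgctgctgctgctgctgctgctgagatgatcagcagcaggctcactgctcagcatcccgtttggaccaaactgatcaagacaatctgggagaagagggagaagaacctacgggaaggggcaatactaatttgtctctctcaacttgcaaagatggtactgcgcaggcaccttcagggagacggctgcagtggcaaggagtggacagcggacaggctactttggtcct

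The core was searched as TGCACNC and TGCGCNC on both strands of windows of 300 bases, the 250 bases before and 50 after the start. Mt2 had 4 matches, beginning at -223, -128 and -50 from the start and at base 5 after it, and Mt3 had 1, at base 28. Mt1 had 3, at -23 and at bases 3 and 21 from the start used, all of them inside the annotated gene. Of 32851 RefSeq windows of that length, 25.7% held at least 1 match, 1.97% at least 3 and 0.517% at least 4. Among the transporters, Slc30a4 had 3 matches, at -228, -92 and -6, and Slc30a1 had 2, at -43 and at base 31, with at least 2 found in 7.11% of windows. Slc30a3 had 1 in the window of 1 of its 2 starts, at -77, and Slc30a5 had 1, at -48. Slc30a9 and Slc39a10 had 0. The starts used for Slc30a1 and Slc30a5 also lie inside the annotated genes, by 84 and 53 bases, and so do these Slc30a1 and Slc30a5 matches, and 1 of the 2 starts each of Slc30a3 and Slc39a10, where no match was found. An antioxidant response element core, searched as TGACNNNGC, was found at -79 of Mt2, at -82 of Slc30a1 and at base 7 of Slc30a5, and in 12.4% of all windows. In the Mt2 window it did not overlap a metal response element match. These matches describe letters only. Upstream windows were found for 9 of the 10 members in the table used.

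The deposited intensities are scaled to the same trimmed mean on each array, and array medians ran from 32.3 to 36.8. The 3′ to 5′ signal ratio of the Actb control probe sets, a measure of RNA length, ran from 14.8 to 19.4 on the 3 tagged arrays and from 22.7 to 27.8 on the others. All 13 granule cell markers were bright enough to test, among them the transcription factor Prox1, at 497 to 651, and the calcium-binding protein Calb1, at 6736 to 7444. Per array, their mean level lay between -0.06 and 0.07 log2 units of its average. Of 15 astrocyte markers 14 were bright enough to test. They ranged widely, with Clu at 5484 to 9623, Aqp4 at 93.4 to 181 and Sox9 at 31.4 to 69.3. The choroid plexus gene Ttr ran from 178 to 17436. RNA of other cells was thus present, and in such samples fewer cells of a type and less RNA per cell cannot be told apart.

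Transgenic and control mice were compared first, which asks whether HuD overexpression goes with a different supply of zinc-handling mRNA in granule cells. None of the 10 genes passed the test. Differences are log2 of transgenic over control from limma with the mouse as replicate (n = 2 per group), and a gene is called at a Benjamini-Hochberg adjusted p under 0.05. Of 14678 genes tested 0 were called (0%), and 632 (4.31%) had an unadjusted p under 0.05, against 0 of the 10 members. With a variance trend and robust fit limma called 1 gene, which is no member. Every member had adjusted p = 0.999 in limma. The 2-sided intervals at 95% bound the size of change that the data allow, and for 7 of the 10 genes they lie within 0.56 log2 units of 0. Group means were lower in transgenic mice for 8 members and higher for 2, with a median of -0.02, beside a median of 0.0026 over all tested genes, of which 7407 were higher and 7271 lower. Scaling the arrays to a common median turned the members' median to 0.07. It multiplies each array by 1 factor, which moved all 10 members up by the same amount. Mt1 went from -0.0051 to 0.084 and Mt2 from -0.43 to -0.34. The median over all tested genes under this scaling was not taken, so the shift is no result about the members.

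**Figure D1:**
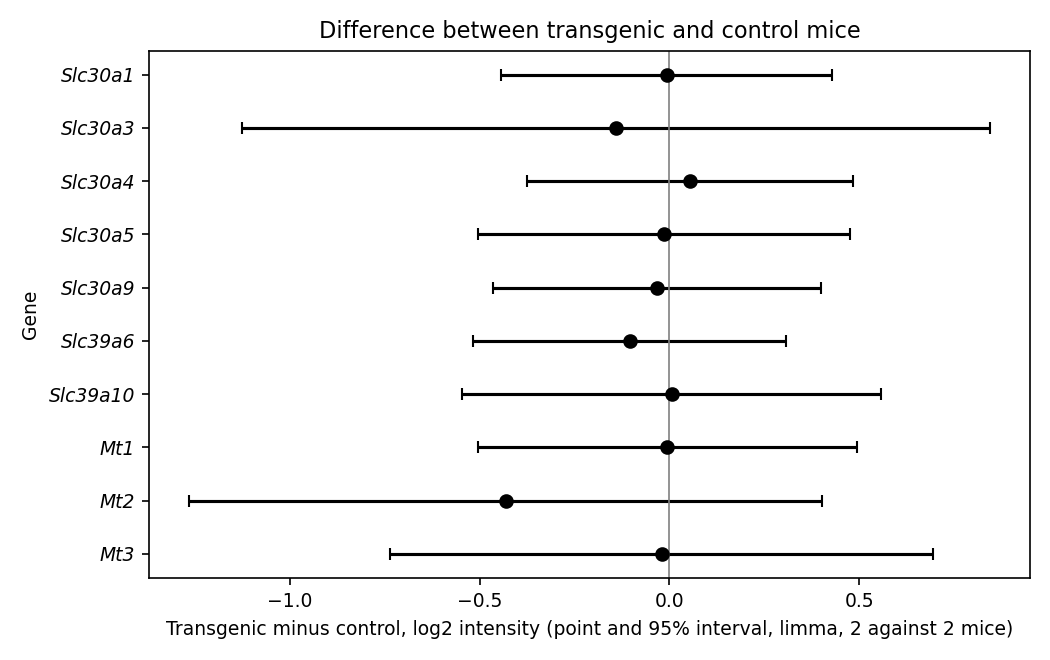
Difference between transgenic and control mice for the 10 genes, as log2 intensity of transgenic minus control (horizontal axis); points are limma estimates and bars 95% intervals over 2 against 2 mice. Every interval crosses 0; those of Slc30a3, Mt2 and Mt3 are the widest, and Mt2 has the largest estimate at -0.43.

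Slc30a3, which fills synaptic vesicles with zinc, varied most between control mice. Its intensity was 505 on control mouse 1 and 288 and 230 on the arrays of control mouse 2, against 377 on transgenic mouse 1 and 328 and 246 on transgenic mouse 2. In both groups mouse 1 was above mouse 2, and the transgenic arrays lay within the control range. The group means were 8.49 ± 0.69 in control and 8.35 ± 0.29 in transgenic mice (log2, SD, n = 2), a difference of -0.14 (SE 0.38, 95% interval -1.12 to 0.84). The difference was 0.35 without control mouse 1 and -0.63 without control mouse 2, so its sign rests on which control mouse is kept. With the mouse as a random block it was 0.04. Slc30a3 spanned 2.19-fold over the arrays, more than 78.4% of all tested genes did and more than 98.4% of the 5100 genes at least as bright as the dimmest member.

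Both mouse 1 arrays carry the re-LCM tag. Control mouse 1 also had the highest mean level of astrocyte markers (0.39 in log2 units, relative to the average array), with the other arrays between -0.21 and 0.05. Oligodendrocyte (0.92), interneuron (0.44), vascular (0.35) and microglia (0.30) markers were highest on this array too. For pyramidal cell markers, from neurons that also make Slc30a3, the level on control mouse 1 was 0.09, below the 0.18 on control mouse 2 array 1 and the 0.17 on transgenic mouse 2 array 1. The part of these cells in the Slc30a3 values was not tested. Within the tagged arrays (1 control, 2 transgenic) the Slc30a3 difference was -0.52 and within the untagged arrays (2 control, 1 transgenic) -0.07. The untagged arrays come from control mouse 2 and transgenic mouse 2 only, so here and below they compare 1 mouse with 1 mouse. The tagged arrays hold 1 control mouse.

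The remaining exporters varied less over the arrays than Slc30a3. Slc30a1, the exporter of the plasma membrane, read 731, 640 and 632 in control and 699, 628 and 691 in transgenic mice (here and below mouse 1 first, then array 1 and array 2 of mouse 2). The highest and the lowest array differed 1.16-fold and the groups overlapped, with a difference of -0.0070 (SE 0.17, interval -0.44 to 0.43). A dimmer Slc30a1 probe set ran from 74.3 to 116 and gave -0.02 in the fit over all 45037 probe sets (limma, adjusted p = 1.00).

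Slc30a4, an exporter of endosomes and vesicles, read 449, 449 and 458 in control and 502, 436 and 439 in transgenic mice. Transgenic mouse 1 stood highest, and the other 5 arrays lay between 436 and 458. The difference was 0.05 (SE 0.16, interval -0.38 to 0.48), and without transgenic mouse 1 it was -0.05. Over the 6 arrays Slc30a4 spanned 1.15-fold, the narrowest range of the 10 members.

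Slc30a5, which supplies zinc to enzymes of the early secretory pathway, read 251, 329 and 284 in control and 293, 257 and 258 in transgenic mice. Its highest and lowest arrays were both control, and the difference was -0.01 (SE 0.19, interval -0.50 to 0.48). Slc30a9, a transporter of mitochondria, read 998, 892 and 859 in control and 939, 894 and 885 in transgenic mice. Both mouse 1 arrays were again the brightest, as for Slc30a3 and Slc30a1, and the difference was -0.03 (SE 0.16, interval -0.46 to 0.40). The share of all tested genes with these 2 arrays brightest was not taken.

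**Figure D2:**
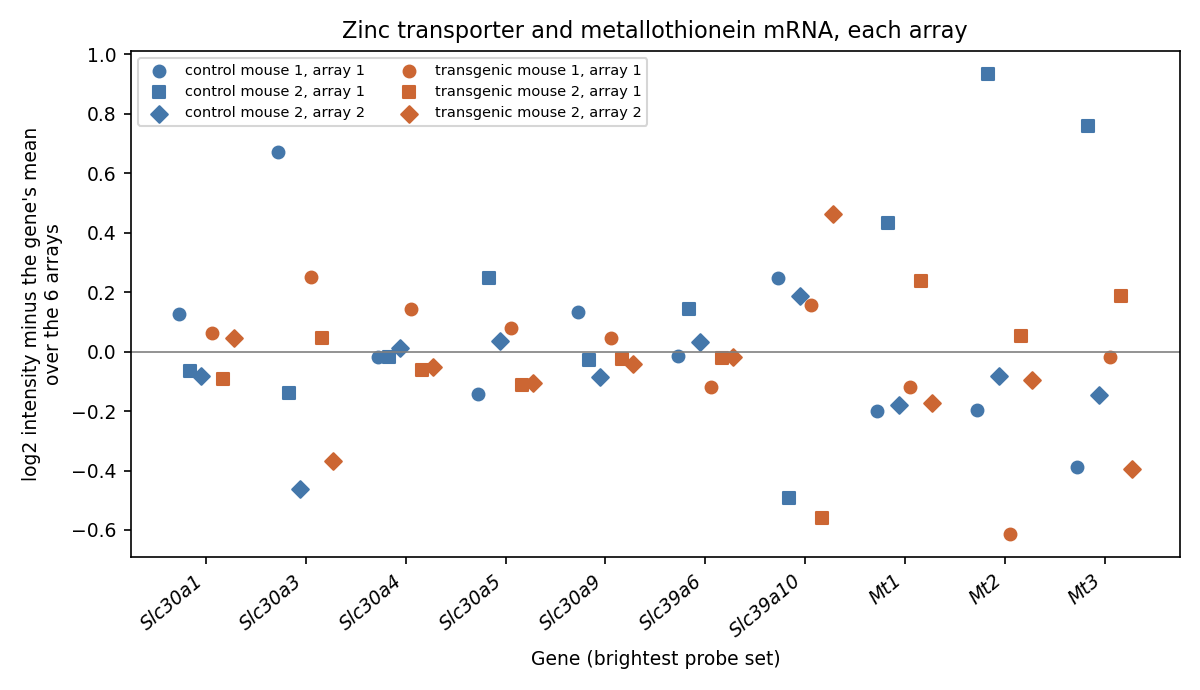
Log2 intensity of each member on each array, minus the gene's mean over the 6 arrays (vertical axis, log2 units); colour gives the group and marker shape the mouse and array. Slc30a1, Slc30a4, Slc30a9 and Slc39a6 stay close to 0 on every array, while Slc30a3, Slc39a10, Mt2 and Mt3 span over 1 log2 unit.

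Among the importers, Slc39a6 was the 1 member whose 3 control and 3 transgenic arrays did not overlap. It read 3920, 4382 and 4050 in control and 3654, 3904 and 3913 in transgenic mice. The gap was narrow, with 3920 as the lowest control and 3913 as the highest transgenic value. The means were 11.99 ± 0.07 and 11.88 ± 0.07 (log2, SD, n = 2), a difference of -0.10 (SE 0.16, interval -0.52 to 0.31) that did not pass the limma test (adjusted p = 0.999). Of all tested genes 1185 (8.07%) had groups without overlap, a share close to 1 of 10 members. The difference stayed between -0.16 and -0.05 when any mouse, or any array of a mouse 2, was left out. It shrank to -0.016 with the arrays scaled to a common median and to -0.041 for the mean of the probe sets that pass. The size of the difference thus depends on the scaling. Its 3 dimmer probe sets, called the second, the third and the fourth here, overlapped between groups and gave -0.02, -0.08 and 0.05. The third and the fourth carry the suffix x_at, which marks probes that may also bind other transcripts.

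Slc39a10, the partner of Slc39a6 in a plasma membrane importer, fell into a bright and a dim set of arrays that cut across the groups. It read 1788, 1069 and 1712 in control and 1677, 1022 and 2072 in transgenic mice. Array 1 of control mouse 2 and array 1 of transgenic mouse 2 were the dim ones, at 1069 and 1022, and the other 4 arrays lay between 1677 and 2072. Arrays of the same mouse thus differed 1.60-fold in control and 2.03-fold in transgenic mouse 2. A gap of this size between the arrays of transgenic mouse 2 was exceeded by 6.10% of tested genes, and 15.4% exceeded that of control mouse 2. The difference between groups was 0.0061 (SE 0.21, interval -0.54 to 0.56), -0.45 within the tagged and 0.61 within the untagged arrays. Left out in turn, mice and arrays of mouse 2 gave -0.25 (without transgenic mouse 2 array 2) to 0.26 (without transgenic mouse 2 array 1). A dim second probe set lay between 2.33 and 33.6, with 2 arrays under the floor of 10.1, under which intensities were set to the floor, and its -0.77 (adjusted p = 0.882) rests on values at the floor.

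The metallothioneins were brightest on exactly those arrays on which Slc39a10 was dimmest. Mt1, of the metal-inducible pair, read 1588, 2463 and 1609 in control and 1681, 2153 and 1620 in transgenic mice. Apart from the arrays at 2463 and 2153, its values lay between 1588 and 1681, and the groups overlapped. The difference was -0.0051 (SE 0.19, interval -0.50 to 0.49), a ratio of 0.996. Its probe set has the suffix s_at, for probes shared by more than 1 transcript. A second Mt1 probe set was dim (5.07 to 41.3, with 3 arrays under the floor) and is not informative on its level.

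Mt2, the other inducible gene, had the largest difference of the members. It read 686, 1503 and 743 in control and 515, 816 and 736 in transgenic mice. Control mouse 2 array 1 was the highest by far and transgenic mouse 1 the lowest, while the other 4 arrays lay between 686 and 816. The means were 9.73 ± 0.44 and 9.30 ± 0.42 (log2, SD, n = 2), a difference of -0.43 (SE 0.32, interval -1.26 to 0.40) or a ratio of 0.742, with an unadjusted limma p of 0.236 and adjusted p = 0.999. Without control mouse 2 array 1 it was -0.18, without control mouse 2 it was -0.12 and without control mouse 1 it was -0.74. It spanned 2.92-fold, more than 90.3% of all tested genes did and more than 99.7% of the bright ones. The arrays of control mouse 2 differed 2.02-fold from each other.

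Mt3, the brain-enriched metallothionein, read 227, 502 and 268 in control and 293, 337 and 226 in transgenic mice. Control mouse 2 array 1 was again highest, transgenic mouse 2 array 1 came next, and the dimmest arrays of both groups were level at 226 and 227. The difference was -0.02 (SE 0.27, interval -0.73 to 0.70). It was 0.21 without control mouse 2 array 1, 0.33 without control mouse 2 and -0.37 without control mouse 1. Within the tagged arrays Mt3 gave 0.47 and within the untagged arrays -0.70, and Mt1 gave 0.26 and -0.30. Mt2 gave -0.08 and -0.52.

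All 3 metallothioneins thus had the same 2 brightest arrays, array 1 of control mouse 2 followed by array 1 of transgenic mouse 2. These arrays were picked out after the values were seen. Of all tested genes 11.8% had the same pair of brightest arrays and 9.56% had it as their dimmest pair, as Slc39a10 did. The 43 ribosomal protein genes, which encode short and abundant mRNAs, had a mean level of 0.16 on both of these arrays. It was -0.14 and -0.13 on the second arrays of the same mice (control, transgenic), and -0.03 and -0.01 on the mouse 1 arrays. Their part in the metallothionein and Slc39a10 values was not tested. Astrocyte markers, of the cells richest in Mt1 and Mt2, had levels of 0.05 and -0.10 on the 2 arrays and were highest on control mouse 1. There Mt1 was at its lowest and Mt2 below its median of 739. The part of astrocytes in the metallothionein values was not tested. The summed intensity of the 14 astrocyte markers was 14162 to 20670 in control and 13725 to 16532 in transgenic mice, and none of the 15 was at the floor on all arrays. Without both of these arrays the group differences were 0.05 for Mt1, -0.21 for Mt2, 0.06 for Mt3 and 0.09 for Slc39a10.

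**Figure D3:**
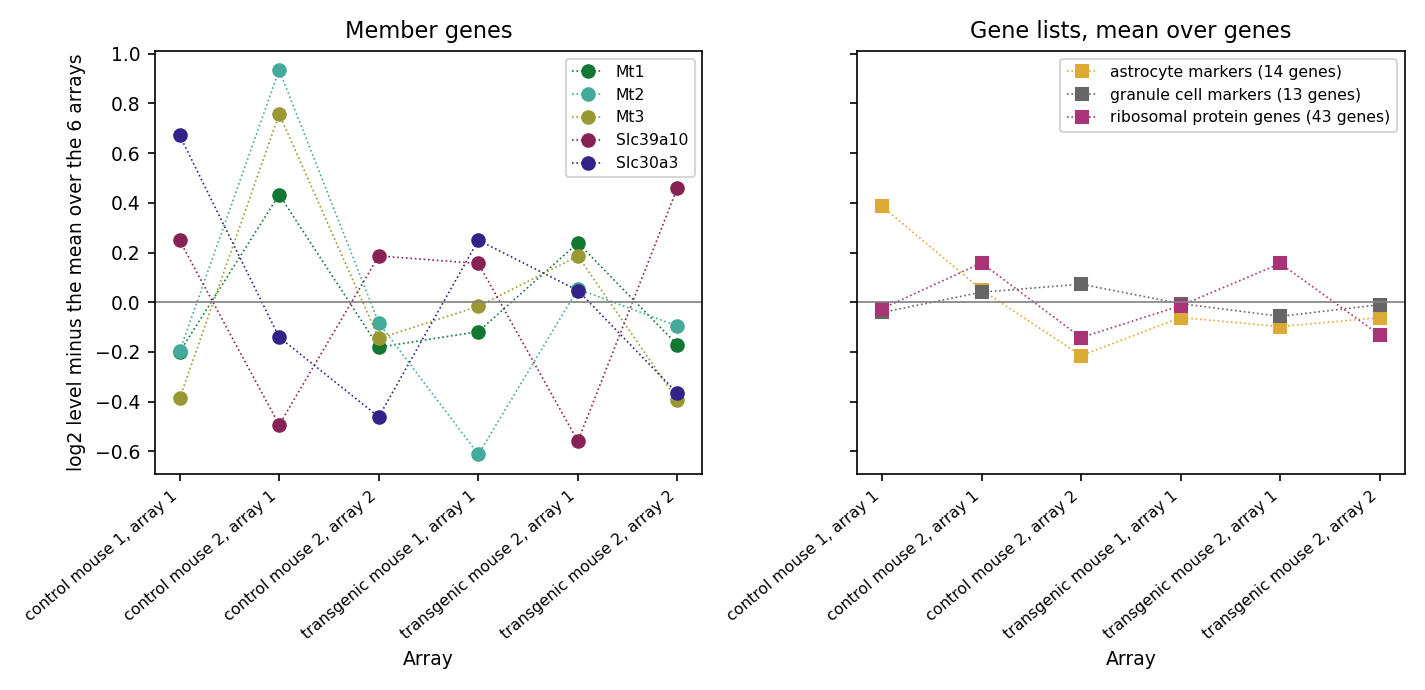
Left, 5 members, and right, the mean over genes of 3 gene lists, as log2 level minus the mean over the 6 arrays (vertical axes) on each array (horizontal axes); dotted lines only guide the eye, since arrays have no order. Mt1, Mt2 and Mt3 peak on control mouse 2 array 1, where Slc39a10 is low, and ribosomal protein genes are at 0.16 on that array and on transgenic mouse 2 array 1.

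As a description of likeness, Pearson's r of log2 values was taken over the 6 arrays, which share 4 mice, between a member and each of 11137 other named genes. Mt1 and Mt3 had r = 0.94, and 0.557% of genes were closer to Mt1 than Mt3 was. Mt2 had r = 0.82 with Mt1 and 0.77 with Mt3, and 4.62% of genes were closer than Mt2 to Mt1 and 5.44% to Mt3. The nearest genes were Jag1, Tpgs2 and Hsd17b10 for Mt1 (r = 0.99 each), Kcnk10, Tes3-ps and Nudt17 for Mt2 (0.98 each) and Mrps16, Snrpg and Zbtb11os1 for Mt3 (0.99, 0.99 and 0.98). For Slc30a3 they were Cbx5, Rab9b and Nabp2 (0.99 each). Besides Mt1 and Mt3, the strongest pairs among the 10 members were Slc30a3 and Slc30a9 (r = 0.97), Slc39a6 and Mt2 (0.95), and Slc39a10 and Mt1 (-0.93). They were picked after the values were seen, and the share of genes with such r was not taken for them.

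On the brightest probe set of each gene, the members fell into a steady and a variable set, with Slc30a5 and Mt1 between them. Slc30a1, Slc30a4, Slc30a9 and Slc39a6 spanned 1.15-fold to 1.20-fold, and 2.25% to 5.34% of all tested genes and 5.69% to 12.9% of the 5100 bright ones spanned less. The dimmer probe sets spanned more, at 1.55-fold for Slc30a1 and 1.68-fold, 1.70-fold and 2.27-fold for Slc39a6. Slc30a5 spanned 1.31-fold and Mt1 1.55-fold, beside a median of 1.62-fold over all tested genes and 1.37-fold over the 5100 bright ones. Slc39a10, Slc30a3, Mt3 and Mt2 spanned 2.03-fold to 2.92-fold, more than 73.3% to 90.3% of all tested genes and 97.4% to 99.7% of the bright ones. For 9 of the 10 members the arrays of control mouse 2 differed from each other by more than the groups did, Slc30a4 being the exception. Between the arrays of transgenic mouse 2 this did not hold for Slc30a4, Slc30a5, Slc30a9, Slc39a6 and Mt2. The share of all tested genes for which it holds was not taken, so whether it is particular to the members is not known.

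**Figure D4:**
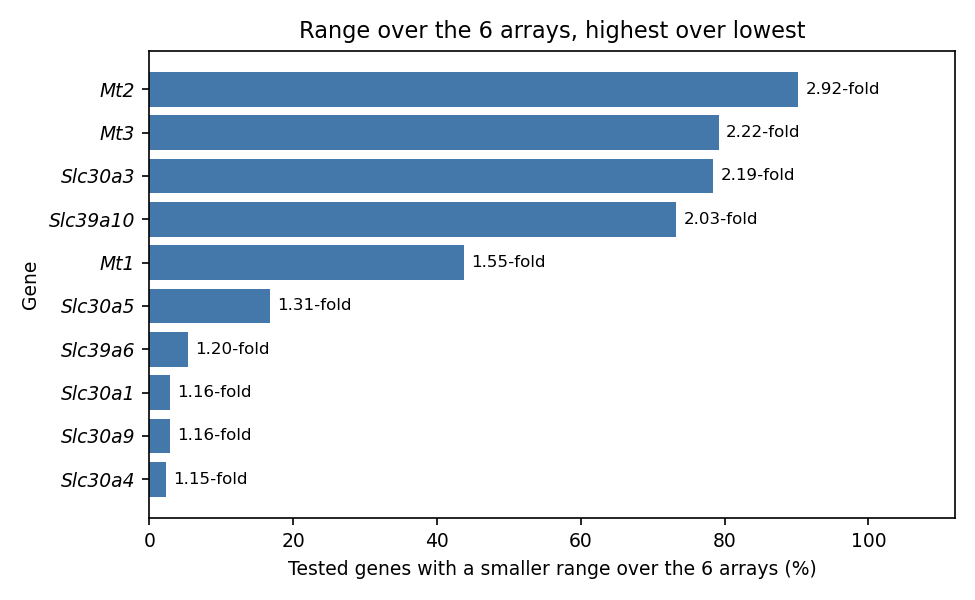
Percentage of the 14678 tested genes that had a smaller range over the 6 arrays than each member (horizontal axis, bars from 0), with the member's highest over lowest intensity as a fold beside its bar. Bars run from 2.25% for Slc30a4 to 90.3% for Mt2.

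The other zinc transporters were taken as a list of 17 genes, of which 11 could be tested. Of these, 7 were higher and 4 lower in transgenic mice, 0 passed the test, and the median was 0.09. Slc39a12, an importer of brain and astrocytes, came closest, at 82.2, 37.1 and 50.4 in control and 30.1, 37.4 and 32.2 in transgenic mice. Its difference was -0.88 (SE 0.34, limma adjusted p = 0.999), with the groups overlapping and the highest value on control mouse 1. On that array astrocyte, oligodendrocyte, microglia, vascular and interneuron markers all had their highest mean level. The part of these cells in the Slc39a12 values was not tested. Slc39a1, a plasma membrane importer, gave 0.15, Slc39a14, which also carries iron and manganese, 0.12 and Slc39a3 0.09. The exporters Slc30a6 and Slc30a7, which work in the Golgi, gave 0.07 and 0.09. The pancreatic exporter Slc30a8 and the exporter Slc30a2 were dim, with 5 of 6 arrays under the floor.

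**Figure D5:**
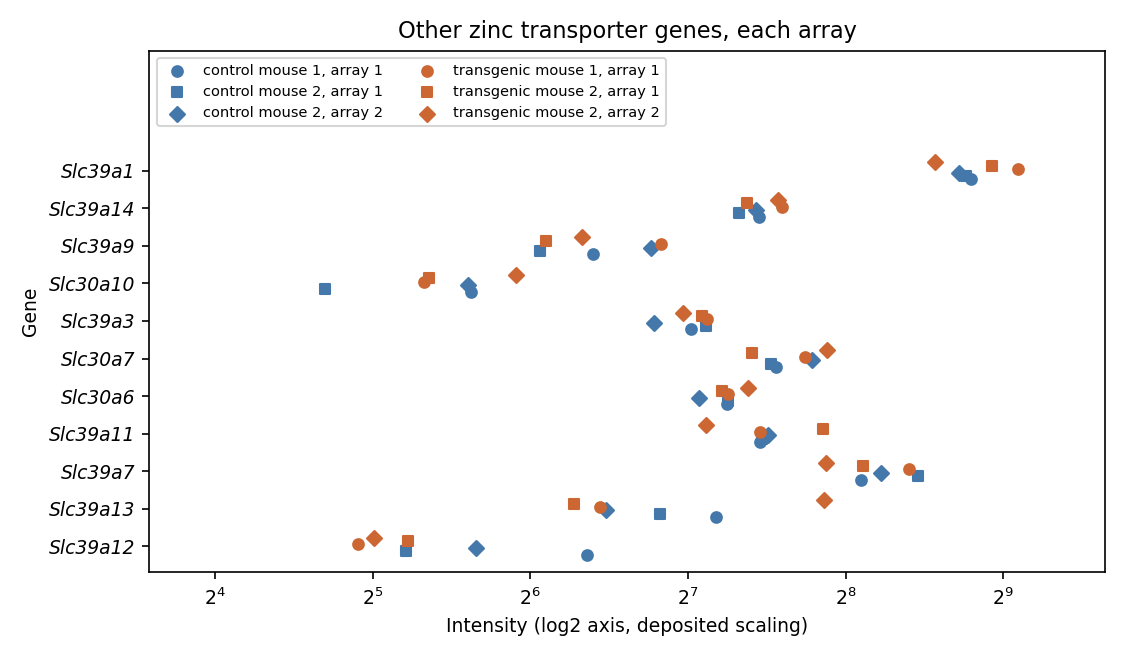
Intensity of the 11 tested zinc transporter genes outside the 10 members on each array (horizontal axis, log2 scale, deposited scaling), sorted by difference between groups; colour gives the group and marker shape the mouse and array. Control and transgenic points overlap for all 11, and Slc39a12 is highest on control mouse 1 at 82.2.

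Genes around the members gave no call either. Of 6 genes of metallothionein regulation and zinc binding 4 were tested, 1 higher and 3 lower. Mtf1, the zinc-sensing factor, read 191, 146 and 122 in control and 139, 107 and 160 in transgenic mice, a difference of -0.24 (SE 0.23). The zinc-binding astrocyte protein S100b gave -0.87 (SE 0.35), the zinc-permeable channel Trpm7 0.33 (SE 0.15) and the zinc enzyme Car2 -0.09. Mt4, the metallothionein of squamous epithelium, had 3 of 6 arrays under the floor.

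All 9 genes of the AP-3 adaptor, which sorts Slc30a3 to synaptic vesicles, and of its vesicle partners were tested, with 3 higher, 6 lower and a median of -0.03. Ap3m1 gave 0.25 (SE 0.16) with groups that did not overlap (312, 351 and 348 in control, 378, 368 and 449 in transgenic mice). It was the 1 such gene of the 9, beside 8.07% of all tested genes. The neuronal subunit Ap3b2 gave 0.16, Ap3b1 0.15 and the vesicular chloride transporter Clcn3 -0.16. Slc17a7, the vesicular glutamate transporter found on zinc-rich vesicles, gave -0.15.

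Of 12 zinc-sensitive receptors and channels 6 were tested, 1 higher and 5 lower, with a median of -0.25. The NMDA receptor subunit Grin2b gave -0.31 (SE 0.18) and was the 1 gene of the 6 without overlap between groups, beside 8.07% of all tested genes. The ATP receptor P2rx4 gave -0.48, the zinc receptor Gpr39 -0.31 and the neurotrophin receptor Ntrk2, which zinc can activate, -0.19. Of 15 genes that glucocorticoids or oxidative stress induce, as they do metallothioneins, 11 were tested, with 7 higher, 4 lower and a median of 0.03. The antioxidant genes Srxn1, Txnrd1 and Gclc gave 0.42, -0.43 and 0.23, and the clock gene Per1, which glucocorticoids induce, -0.21. Txnrd1 was the 1 gene of these 11 without overlap between groups. None of these lists had a called gene, beside 0% over all genes.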

How the data were processed

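Total RNA of isolated granule cells was measured on 6 arrays from 4 mice. The authors deposited linear probe set intensities, scaled so that the trimmed mean over all 45101 probe sets (2% left out at each end) is 150.001 on every array. How probes were summarised and background removed is not given in the sources used here. Precision is limited by how few mice and arrays there are. Values under the pooled 25th percentile, 10.1, were raised to this floor before log2, and 64 control probe sets were dropped. Probe sets with a mean above the median were kept, with the brightest per gene, which gave 14678 tested items, 3540 of them without a symbol (called genes here). Of the 16 member probe sets 14 passed. The arrays of a mouse were averaged and groups compared with limma 3.58.1 in R 4.3.3 (2 residual and 2.70 prior degrees of freedom), with Benjamini-Hochberg adjustment at 0.05. Every probe set of a member was also fitted unfiltered. The fit was run on simulated data with known changes. Its arrays were drawn independently of the mouse, so the run does not say how small a change these mice could show. Motifs were searched in promoter windows of RefSeq, GRCm38.p6.

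Named genes are the members, up to 4 genes of smallest p per list and the 3 nearest genes of Slc30a3, Mt1, Mt2 and Mt3. Slc30a2, Slc30a6, Slc30a7, Slc30a8, Slc17a7, Mt4, Prox1, Calb1, Clu and Ttr were added for their roles after their values were seen. Aqp4 and Sox9 were added as dim astrocyte markers, also after their values were seen. Members and lists were chosen with earlier results of these data known. The marker lists had median differences of -0.03 (granule cell), -0.18 (astrocyte), -0.57 (oligodendrocyte), -0.33 (microglia), -0.28 (vascular), -0.05 (choroid plexus), -0.11 (pyramidal cell) and -0.38 (interneuron), with 0 genes called in each. Mouse numbers were not treated as pairs, since nothing in the labels ties them and the deviations of the same-numbered mice correlated at 0.03 across genes. Alternatives covered the scaling, floor, filter, choice of probe set, unit of replication, tag, variance model and each mouse or array left out.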

Additional observations from a re-analysis of the deposited data

How the results depend on the processing

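With 2 mice per group, a variance trend and robust fit (limma) called 1 gene, no member, and the other alternatives of the 20 run called 0. The lowest adjusted p (limma) of a member under any alternative was 0.522. Of 220 member values under alternatives 45 changed sign, 5 kept it but moved beyond the spread between mice, and 170 kept it within that spread. Scaling to a common median moved every member gene up by the same amount, which gave its sign changes. The cause of the other changes was not tested. Mt2 and Slc39a6 were lower in transgenic mice under every alternative run. Entering the mouse number as a replicate block, which pairs same-numbered mice, leaves each difference as it was (-0.43 for Mt2, -0.02 for the members' median), and 0 genes were called.

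Values whose sign changed or that became 0, those of other probe sets included, follow. Scaling the arrays to a common median gave 0.084 for Mt1, 0.069 for Mt3, 0.082 for Slc30a1, 0.064 for the second Slc30a1 probe set, 0.076 for Slc30a5, 0.056 for Slc30a9, 0.066 for the second Slc39a6 probe set and 0.0056 for the third Slc39a6 probe set. Taking 6 arrays as separate samples gave 0.012 for Slc30a1, 0.099 for the second Slc39a6 probe set and 0.050 for the third Slc39a6 probe set. A random block for each mouse gave 0.029 for Slc30a1, 0.035 for Slc30a3, -0.013 for Slc30a4, 0.0024 for Slc30a9, 0.20 for the second Slc39a6 probe set and 0.17 for the third Slc39a6 probe set. Adding the tag as a term gave 0.048 for the third Slc39a6 probe set and -0.13 for the fourth Slc39a6 probe set. Quantile normalization gave -0.012 for Slc39a10. Raising the floor to the median intensity gave 0 for the dim Slc39a10 probe set. Leaving out array 1 of both mice numbered 2, an alternative chosen after seeing the data, gave 0.046 for Mt1, -0.092 for the dim Mt1 probe set, 0.061 for Mt3, 0.032 for Slc30a1, 0.042 for Slc30a5 and -0.12 for the fourth Slc39a6 probe set. Without control mouse 2 array 1 the values were 0.15 for Mt1, 0.21 for Mt3, 0.040 for Slc30a5 and -0.16 for Slc39a10. Without control mouse 2 array 2 the values were 0.046 for the second Slc30a1 probe set, 0.049 for the second Slc39a6 probe set and -0.082 for the fourth Slc39a6 probe set. Without transgenic mouse 2 array 1 the values were -0.092 for the dim Mt1 probe set, 0.027 for Slc30a1 and -0.25 for the fourth Slc39a6 probe set. Without transgenic mouse 2 array 2 the values were 0.098 for Mt1, 0.13 for Mt3, 0.13 for the second Slc30a1 probe set, -0.25 for Slc39a10 and 0.059 for the second Slc39a6 probe set. Within the tagged arrays, with no test, these were 0.26 for Mt1, 0.47 for Mt3, 0.064 for the second Slc30a1 probe set, 0.13 for Slc30a5 and -0.45 for Slc39a10. Within the untagged arrays, with no test, these were 0.12 for Slc30a1, -0.049 for Slc30a4, 0.016 for Slc30a9, 0.79 for the dim Slc39a10 probe set, 0.18 for the second Slc39a6 probe set, 0.20 for the third Slc39a6 probe set and -0.35 for the fourth Slc39a6 probe set.

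Leaving out each mouse in turn, with the lone mouse of its group assumed to vary like the others, gave -0.17 to 0.16 for Mt1, -0.45 to 0.91 for the dim Mt1 probe set, -0.37 to 0.33 for Mt3, -0.11 to 0.093 for Slc30a1, -0.17 to 0.12 for the second Slc30a1 probe set, -0.63 to 0.35 for Slc30a3, -0.046 to 0.15 for Slc30a4, -0.15 to 0.13 for Slc30a5, -0.13 to 0.063 for Slc30a9, -0.19 to 0.21 for Slc39a10, -0.32 to 0.28 for the second Slc39a6 probe set, -0.41 to 0.24 for the third Slc39a6 probe set and -0.20 to 0.29 for the fourth Slc39a6 probe set.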
